A study of Mus musculus with 4 samples.

Results

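Cardiac fibroblasts isolated from 3-month-old male wild-type (WT) mice and kept untreated in culture for 4 days were profiled on 1 Affymetrix array, and the genes measured on that array were ordered by their intensity. The array is 1 of 4 in the series. The other arrays carried RNA of WT fibroblasts treated for 72 h with phenylephrine (30 µM), which activates α1-adrenergic receptors, of untreated fibroblasts from mice lacking plasma membrane calcium ATPase 4 (PMCA4-/-, a deletion in all cells of the animal), and of PMCA4-/- fibroblasts given the same phenylephrine treatment, all from 3-month-old males with 4 days of culture. RNA of 3 batches of cells was pooled for each condition. The study also describes several independent RNA pools of each genotype. How those pools relate to the single array of each condition was not tested. The cells were obtained by digesting hearts with collagenase and plating, with no sorting step named, so the array reads whatever adhered and grew, and in such bulk RNA fewer cells of a type and less RNA per cell cannot be told apart. Each condition was measured on a single array, so no spread between replicates could be set beside a value and no test was run.

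Of 45037 probe sets, 37818 were annotated to a single gene symbol and gave 20586 genes, all of which are ranked here. Each gene was read from its brightest probe set in the PUMA estimate, a model of probe-level signals that returns an intensity in arbitrary units on a linear scale, and rank 1 is the highest intensity. A second estimate of the same array, Robust Multiarray Average (RMA), was set beside it. Probe sets bind their targets unequally, so ranks order hybridization signals and not amounts of transcript. A gene was counted as above the array median when its intensity exceeded 34.0, the median of all probe sets on the array, and 11361 genes, or 55.2%, did so. The top 5% of genes held 1029 genes, or 5% of all, from an intensity of 2445 upward, and the top 1% held 205 genes, or 0.996%, from 6777 upward. Counts of gene lists below are to be read beside these shares, and a list near them does not stand out.

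Cardiac fibroblasts are the mesenchymal cells that build and turn over the collagen network of the heart. They secrete collagens, glycoproteins and proteoglycans together with the enzymes that crosslink and degrade them, they sense growth factors, cytokines and stretch through surface receptors, and they signal to cardiomyocytes and immune cells by secreted ligands. In culture on a rigid surface with serum they tend to take on features of myofibroblasts, which carry smooth muscle α-actin fibres.

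The intensities were compressed at the top of the order and spread out at the bottom. The highest gene, *Fth1*, the ferritin heavy chain that stores iron, read 17975, and the gene at rank 100, *Lamp1*, a lysosomal membrane protein, read 8858, a 2.03-fold span over the first 100 ranks. Intensities above 10000 were found for 72 genes and intensities above 1000 for 2817 genes, 13.7% of all. At the other end, 2370 genes read below 1. The first 100 genes held 10.7% of the summed intensity over all genes and the top 5% held 47.6%.

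**Figure D1:**
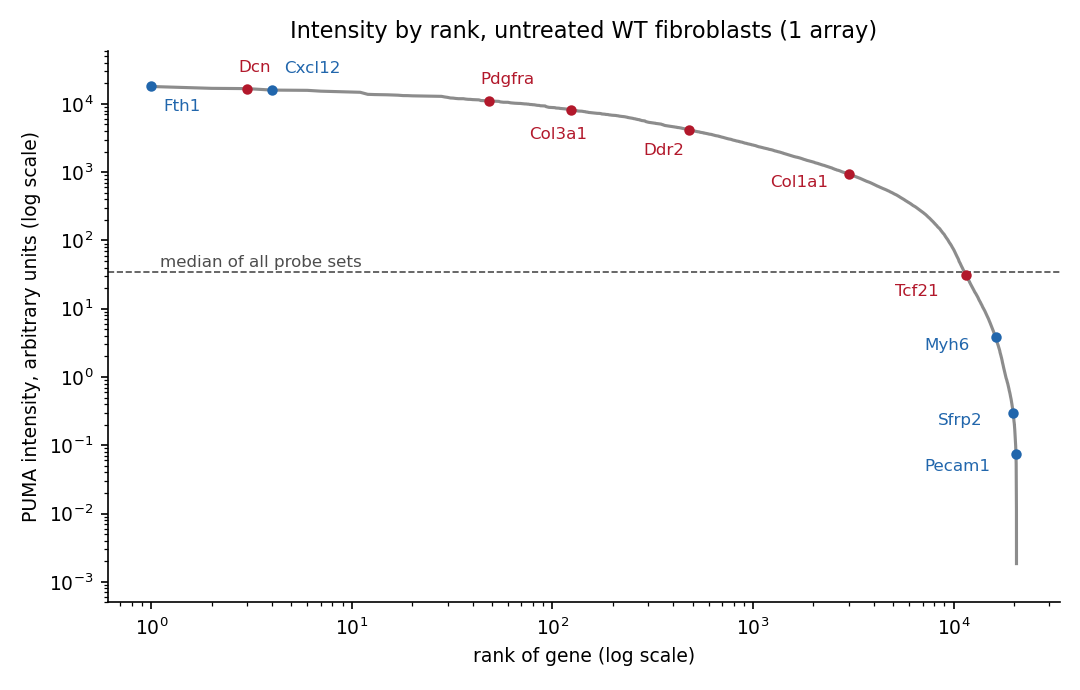
PUMA intensity in arbitrary units against the rank of each of 20586 genes in untreated WT fibroblasts, both on log axes, with genes of the fibroblast marker list in red, other named genes in blue, and a dashed line at the median of all probe sets (34.0). *Dcn*, *Pdgfra*, *Col3a1* and *Ddr2* lie on the flat upper part of the curve, *Col1a1* lower at 933, and *Tcf21* just under the median at 31.0.

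The 30 genes of highest intensity fell into a few groups. Cytosolic ribosomal protein genes supplied 11 of the first 30 and 36 of the first 100, led by *Rpl23* at 14896 (rank 10) and *Rpl26* at 13801 (rank 12). *Eef1a1*, the elongation factor that brings aminoacyl-tRNA to the ribosome, read 15355 (rank 7), and *Tpt1*, the translationally controlled tumour protein, read 15836 (rank 5). *Eef1a1* and the ribosomal proteins belong to protein synthesis, which every growing cell needs.

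Secreted products of mesenchymal cells made up another group of the first 30. *Dcn*, encoding decorin, a small proteoglycan that binds collagen fibrils, read 16737 (rank 3). *Cxcl12*, the chemokine ligand of the receptor CXCR4, read 15927 (rank 4), and *Mmp3*, the matrix protease stromelysin, read 15790 (rank 6). Further matrix genes were *Efemp1*, a fibulin, at 12978 (rank 25), *Col1a2*, the α2 chain of type I collagen, at 12908 (rank 26), and *Bgn*, the proteoglycan biglycan, at 12900 (rank 27). *Selenop*, a selenium carrier protein, read 13586 (rank 15), and *Rnase4*, a secreted ribonuclease, read 15201 (rank 8).

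Genes of the acute-phase and innate response were also among the first 30. *C3*, the central complement component, read 14792 (rank 11), *Saa3*, an acute-phase serum amyloid protein, read 15070 (rank 9), and *Ifitm3*, a membrane protein that restricts entry of enveloped viruses, read 13058 (rank 22). The others of the first 30 were *Lgals1*, which encodes galectin, a lectin for β-galactosides, at 16889 (rank 2), *Ppia*, the prolyl isomerase cyclophilin A, at 13086 (rank 21), *Mgst1*, a microsomal glutathione transferase, at 13054 (rank 23), *Itm2b*, a transmembrane protein, at 13020 (rank 24), *Plpp3*, a lipid phosphate phosphatase, at 12889 (rank 28), and ribosomal protein genes.

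The order within the first ranks was not resolved by these measurements. Of the first 100 genes, 58 had more than 1 probe set, and their brightest probe set exceeded their dimmest by a median of 17.9-fold. In 12 of them the dimmest probe set lay below the array median. For *Mgst1* the probe sets read 13054 and 6.26, for *Dcn* 16737 and 754, and for *Tpt1* the dimmest of its pair read 2.38. By RMA, 23 of the first 30 genes by PUMA were among the first 30 and 81 of the first 100 among the first 100. *Fth1* ranked first in both estimates, while *Mmp3* moved from rank 6 to 18 and *Cxcl12* from 4 to 9.

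On the other arrays the first 100 genes of untreated WT cells were again near the top. Of these, 97 were among the first 100 genes in phenylephrine-treated WT cells, 79 in untreated PMCA4-/- cells and 81 in phenylephrine-treated PMCA4-/- cells. The gene of this set placed lowest in both PMCA4-/- arrays was *Mmp3*, at rank 490 without and 460 with phenylephrine. Its intensity was 15790 in untreated WT cells, 16553 with phenylephrine, 4350 in untreated PMCA4-/- cells and 4530 in treated ones.

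The label of the sample was checked against fibroblast markers. The collagen receptor *Ddr2*, the platelet-derived growth factor receptor *Pdgfra* and the collagen genes *Col1a1* and *Col3a1* mark fibroblasts in the heart. In GRCm38.p6 these genes lie at chr1:169972307-170110836, chr5:75151322-75198206, chr11:94936224-94953042 and chr1:45311538-45349706. Of the 4, 3 lay in the top 5% of genes and all 4 above the array median.

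*Pdgfra* was the brightest of the set. It read 11058 in untreated WT cells (rank 48), and 11456, 8671 and 7982 on the arrays of treated WT, untreated PMCA4-/- and treated PMCA4-/- cells. Its other probe sets read 1798 and 1165 on the untreated WT array, and every probe set was far above the array median.

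*Col3a1*, encoding type III collagen, read 8088 (rank 124) by its brightest probe set and 1228 by the other. On the remaining arrays the brightest probe set read 8568 in treated WT, 13270 in untreated PMCA4-/- and 12258 in treated PMCA4-/- cells, so that both WT arrays were below both PMCA4-/- arrays. *Ddr2* read 4200 (rank 478) and 1321 by its 2 probe sets. Its brightest probe set read 4279 in treated WT, 3473 in untreated PMCA4-/- and 3522 in treated PMCA4-/- cells.

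*Col1a1*, the α1 chain of type I collagen, was the member outside the top 5%. Its probe sets read 933 and 466, which put it at rank 3010, in the top 14.6% of genes, and RMA placed it at rank 2051. The same brightest probe set read 930 in treated WT, 1854 in untreated PMCA4-/- and 1461 in treated PMCA4-/- cells. *Col1a2*, whose product joins that of *Col1a1* in the type I collagen trimer, read 12908, 4770 and 146 by its 3 probe sets.

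The wider list of fibroblast markers held 8 genes, of which 7 were above the array median and 6 in the top 5%. Besides those above it held *Dcn* and *Thy1*, a surface glycoprotein of mesenchymal cells that read 7251 (rank 172). The member below the array median was *Tcf21*, the transcription factor of epicardium-derived fibroblast progenitors. Its probe sets read 31.0 and 4.04, and its brightest read 28.3, 31.8 and 28.6 on the other arrays in the order treated WT, untreated and treated PMCA4-/-. By RMA it read 27.5 on the untreated WT array and was again below the median, so a defining marker of that lineage was not above the array median in a sample labelled as cardiac fibroblasts.

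Markers of other cell types of the heart were read as whole lists. Of 10 measured cardiomyocyte markers, 1 lay above the array median, *Tnni3*, cardiac troponin I, at 37.9 (rank 11135). The myosin heavy chain *Myh6* read 3.80, the calcium-pump regulator *Pln* 4.30, cardiac troponin T (*Tnnt2*) 8.46, and the natriuretic peptide genes *Nppa* and *Nppb* 13.1 and 0.238. Of 7 endothelial markers, 1 was above the median, the angiopoietin receptor *Tek* at 240 (rank 7244). *Kdr*, the receptor of vascular endothelial growth factor, read 19.7 by PUMA and, at 88.6, lay above the RMA median, which made 2 of 7 by RMA. *Cdh5*, the cadherin of endothelial junctions, read 9.41, and *Pecam1* read 0.0742.

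Leukocyte markers were mixed, and their count is to be read beside the 55.2% of all genes above the array median. Of 8, 4 lay above the array median: *Cd14*, the lipopolysaccharide co-receptor, at 891 (rank 3150), *Lyz2*, lysozyme, at 379 (rank 5803), *Csf1r*, the receptor for macrophage colony-stimulating factor, at 153 (rank 8443), and *Adgre1*, the F4/80 antigen, at 43.9 (rank 10862). *Adgre1* was below the RMA median at 32.9, and RMA placed 3 of the 8 above its median. *Ptprc*, the pan-leukocyte antigen, read 4.95, *Itgam* read 0.744, *Cd68* 32.7 and *Fcgr1* 8.17, all below the median. No marker of lymphocytes (3 measured, highest *Ms4a1* at 10.2) or red cells (2 measured) exceeded the median by PUMA. *Actc1*, *Plin1*, *Cd79a*, *Hbb-bs* and *Hbb-bt*, also listed as markers, had no probe set of their own. *Cd3e* read 2.47 by PUMA and lay above the RMA median at rank 9954, so its call depended on the estimate.

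Among smooth muscle and pericyte markers, 5 of 8 lay above the median, beside 55.2% of all genes. *Pdgfrb*, the platelet-derived growth factor receptor of mural cells and fibroblasts, read 7378 (rank 159), and *Acta2*, smooth muscle α-actin, read 2549 (rank 975). *Tagln*, an actin-binding protein, read 726 (rank 3728), *Rgs5*, a regulator of G-protein signalling in pericytes, 185, and the proteoglycan *Cspg4* 93.1. *Myh11*, *Des* and *Cnn1*, genes of contractile muscle cells, read 5.28, 3.75 and 0.983 and were below the PUMA median, but *Des* was above the RMA median at 78.0, which made 6 of 8 by RMA.

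The value for *Acta2* rested on 1 of its 3 probe sets. The others read 10.6 and 5.15, and the gene stood at rank 13200 with the median over probe sets and at rank 13590 without _x_at and _s_at probe sets, which can bind related transcripts and to which the bright one belongs. Its brightest probe set read 2512 in treated WT cells and 10268 and 10209 in untreated and treated PMCA4-/- cells, so the untreated WT array was among the lower pair of the 4.

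In the list of epicardial and mesothelial markers 2 of 5 lay above the median, *Tbx18* at 557 (rank 4568) and *Wt1* at 91.9 (rank 9560), both transcription factors of the epicardium. *Msln* at 8.47, *Krt19* at 1.19 and *Upk3b* at 0.133 did not. The Schwann cell list had 1 of 4 above the median by PUMA and 2 by RMA, and the adipocyte list 1 of 3 (*Fabp4*, a fatty acid carrier also made by endothelium and macrophages, at 506). *Adipoq*, adiponectin, read 9.17.

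**Figure D2:**
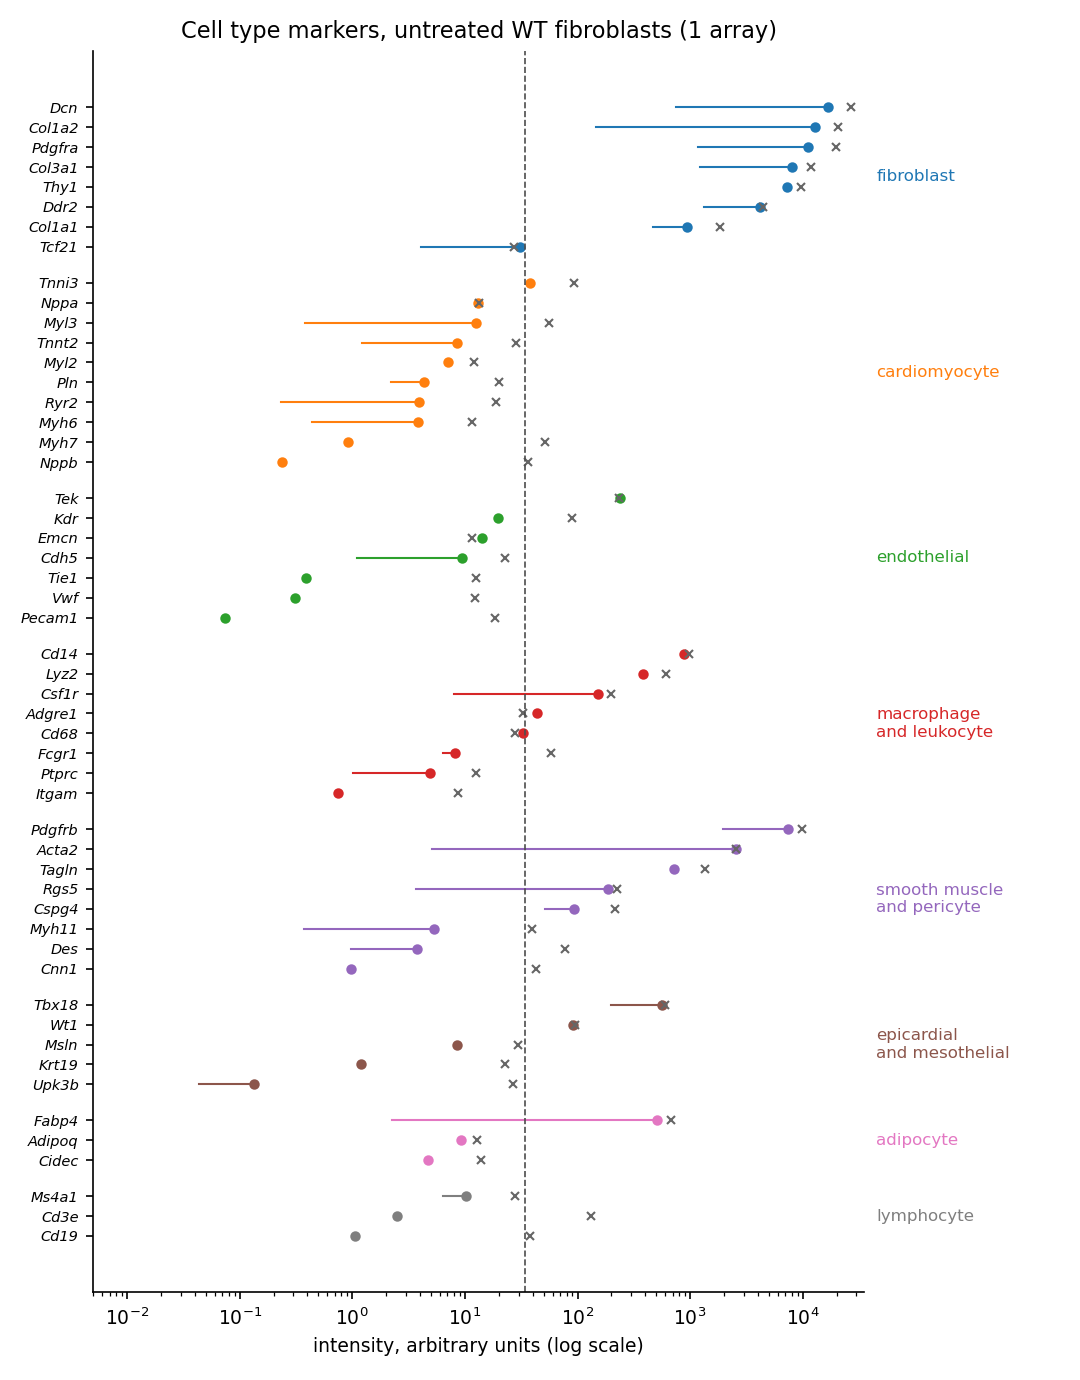
Intensity in arbitrary units on a log axis for the measured genes of 8 of the cell type marker lists in untreated WT fibroblasts. Filled circles are the brightest probe set by PUMA, lines run down to the dimmest probe set of the gene, crosses are the RMA intensity of the gene, and the dashed line is the PUMA median of all probe sets (34.0). By their filled circles, fibroblast markers other than *Tcf21* lie at 933 or above, and cardiomyocyte markers at 37.9 or below. The crosses are to be read against the RMA median of 72.96, which is not drawn.

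The sex given by the label was checked on 5 genes. The Y-linked genes *Ddx3y* (1362, rank 2065), *Eif2s3y* (395), *Kdm5d* (301) and *Uty* (255) were all above the array median. *Xist*, the RNA that silences an X chromosome in female cells, read 25.8 and was below it.

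Of the 20586 genes, 14397 had a promoter sequence available. Those with a RefSeq start at the 5′ end of the gene, 8242 genes, were read, and the promoter values below cover these genes only. A CpG dinucleotide is a target of DNA methylation, and mammalian promoters fall into CpG-rich ones, typical of genes used in most cells, and CpG-poor ones, typical of genes used in few. The ratio of observed to expected CpG over 300 bases (250 before and 50 after the start) had a median of 0.773 in 4723 genes above the array median and 0.310 in 3519 genes not above it. In the top 5% it was 0.799. Within the top 5%, genes of the translation and energy lists had a median of 0.872 (n = 63, quartiles 0.731 and 0.973) and genes of the secreted and matrix lists 0.546 (n = 46, quartiles 0.299 and 0.680).

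The 100 bases before the start are shown to let these classes be seen, with each CG in capitals, for genes picked after their values were seen. They are given 5′ to 3′ on the gene's strand from RefSeq, build GRCm38.p6. The first pair encodes ribosomal proteins of the large subunit, Cxcl12 to Col1a2 are secreted products of high intensity, and Pln, Nppa and Isl1 are cardiac lineage genes below the array median.
Rpl23 (rank 10, chr11:97782440-97782539, minus strand): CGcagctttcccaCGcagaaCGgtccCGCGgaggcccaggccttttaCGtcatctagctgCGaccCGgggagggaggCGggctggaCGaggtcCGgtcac
Rpl26 (rank 12, chr11:68901466-68901565, plus strand): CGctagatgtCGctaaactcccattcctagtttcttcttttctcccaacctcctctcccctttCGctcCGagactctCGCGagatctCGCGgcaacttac
Cxcl12 (rank 4, chr6:117168435-117168534, plus strand): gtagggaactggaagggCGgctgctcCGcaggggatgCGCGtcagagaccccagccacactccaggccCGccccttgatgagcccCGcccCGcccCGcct
Mmp3 (rank 6, chr9:7445722-7445821, plus strand): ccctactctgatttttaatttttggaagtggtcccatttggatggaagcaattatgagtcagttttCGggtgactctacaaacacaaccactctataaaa
Col3a1 (rank 124, chr1:45311438-45311537, plus strand): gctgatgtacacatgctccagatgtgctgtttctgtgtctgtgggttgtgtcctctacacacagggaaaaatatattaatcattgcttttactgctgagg
Col1a2 (rank 26, chr6:4505518-4505617, plus strand): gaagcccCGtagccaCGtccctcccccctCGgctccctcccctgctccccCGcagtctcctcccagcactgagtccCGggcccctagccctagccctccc
Pln (rank 15948, chr10:53337586-53337685, plus strand): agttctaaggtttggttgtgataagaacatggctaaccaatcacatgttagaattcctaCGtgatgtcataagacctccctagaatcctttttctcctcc
Nppa (rank 13466, chr4:148000622-148000721, plus strand): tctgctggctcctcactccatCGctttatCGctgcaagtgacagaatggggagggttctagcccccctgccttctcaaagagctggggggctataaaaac
Isl1 (rank 19542, chr13:116309689-116309788, minus strand): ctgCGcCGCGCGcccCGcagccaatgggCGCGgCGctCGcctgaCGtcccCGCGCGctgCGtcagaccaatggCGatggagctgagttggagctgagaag

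These windows held 11 and 8 CG in *Rpl23* and *Rpl26*, 8 in *Cxcl12*, 5 in *Col1a2*, 1 in *Mmp3* and 0 in *Col3a1*. The dim genes *Pln* and *Nppa* held 1 and 2. *Isl1*, a transcription factor of the cardiac progenitors that read 0.397, held 15, so a CpG-rich promoter was not a sign of a high intensity for every gene.

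**Figure D3:**
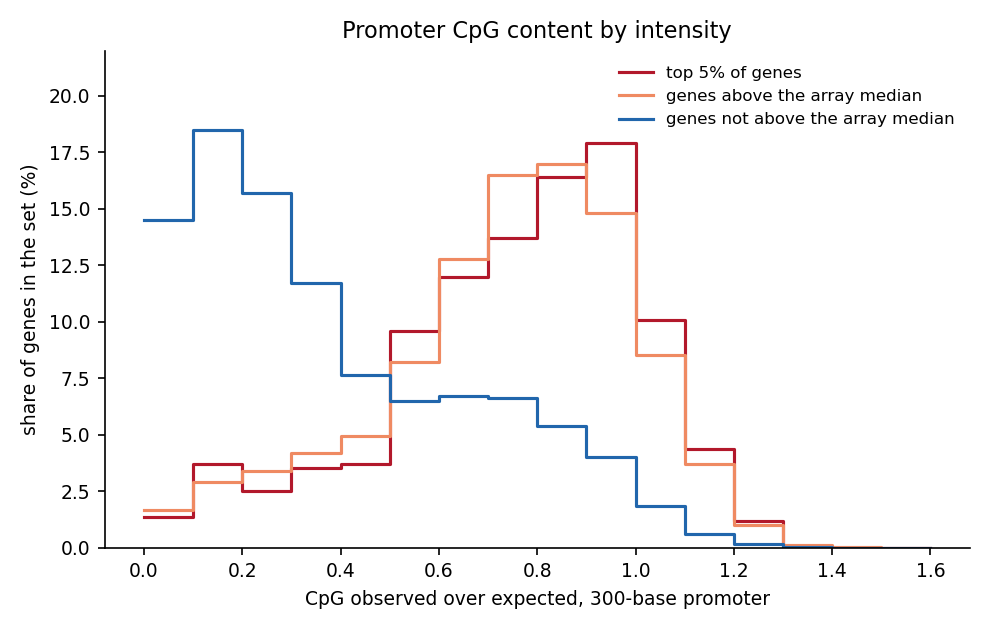
Share of genes (percent of each set) by the ratio of observed to expected CpG in their 300-base promoter, in steps of 0.1, for 593 genes of the top 5%, 4723 genes above the array median (which include them) and 3519 genes not above it. The genes not above the median peak in the step from 0.1 (18.5%), the genes above it in the step from 0.8 (17.0%) and the top 5% in the step from 0.9 (17.9%).

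A TATA element was looked for as the letters TATAAA on the gene's own strand between 45 and 15 bases before the start. It was present in 1.52% of the genes above the array median, 6.51% of those not above it, 3.04% of the top 5% and 3.65% of all 8242 genes. Among 93 genes of the first 150 ranks with a promoter read here, 5 held it (5.38%). Genes with TATAAA nearer the annotated start, such as *Mmp3* and *Nppa* in the windows above, were not counted. For the 5 counted genes, the 70 bases before the start are printed here with TATAAA in capitals. They are examples of this element in genes of high intensity, among them *Vim*, the gene of vimentin.
Ppia (rank 21, chr11:6415797-6415866, plus strand): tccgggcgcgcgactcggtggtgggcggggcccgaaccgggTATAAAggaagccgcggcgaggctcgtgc
S100a4 (rank 49, chr3:90603700-90603769, plus strand): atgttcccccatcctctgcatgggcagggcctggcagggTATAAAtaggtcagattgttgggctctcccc
Prdx1 (rank 109, chr4:116685529-116685598, plus strand): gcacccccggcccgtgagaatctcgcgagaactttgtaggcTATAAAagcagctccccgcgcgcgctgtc
Vim (rank 121, chr2:13574241-13574310, plus strand): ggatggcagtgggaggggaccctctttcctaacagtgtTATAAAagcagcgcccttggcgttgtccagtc
Anxa1 (rank 127, chr19:20390672-20390741, minus strand): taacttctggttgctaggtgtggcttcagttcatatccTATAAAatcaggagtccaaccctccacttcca

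Of the letters searched over the whole 300 bases on both strands, GGGCGG, a GC box, was found in 65.9% of the genes above the array median and 31.6% of those not above it, and CCAAT in 40.1% and 37.9%. CCAAT is thus near its share in all genes, 39.2%, in both sets. A match is a run of letters and not a site shown to be bound. On the genome the first 100 genes spanned a median of 5.01 kb, the top 5% 17.2 kb, the genes above the array median 23.8 kb and those not above it 15.7 kb, so span did not follow intensity in 1 direction, beside 20.3 kb for all 18292 genes placed in the annotation.

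Matrix genes were described by role. Of 11 fibrillar collagen genes, 8 lay above the array median and 3 in the top 5%, *Col1a2*, *Col3a1* and *Col5a2* (3910, rank 532), which encodes a chain that nucleates type I fibrils. The cartilage collagen *Col2a1* read 0.595 and *Col11a2* 8.62. Of 17 basement membrane and other collagens, 12 were above the median and 5 in the top 5%. The 3 chains of the microfibrillar type VI collagen were all in the top 5%, *Col6a1* at 4798, *Col6a3* at 4648 and *Col6a2* at 3690, along with *Col8a1* at 4627 and *Col4a5* at 2496.

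Of 26 glycoproteins of the matrix, 25 exceeded the median and 12 were in the top 5%, with a median rank of 1166.5 against 10293.5 for all genes. After *Efemp1* came *Sparc*, a collagen-binding matricellular protein, at 11666 (rank 38), and *Fn1*, fibronectin, at 10890 (rank 53). The thrombospondins *Thbs1* and *Thbs2*, which bind cells and latent growth factors, read 8017 and 7292, and *Fbln2*, fibulin 2, read 7312. The lowest were *Mfap4* at 82.1, *Eln*, elastin, at 63.3, and *Vtn*, vitronectin, a plasma protein made in liver, at 9.92, which was below the median.

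Of 18 proteoglycan genes, 16 were above the median and 7 in the top 5%. *Lum* (5700) and *Ogn* (4676), small leucine-rich proteoglycans like decorin, followed *Dcn* and *Bgn*. *Acan*, the cartilage proteoglycan, read 7.09 and *Gpc3* 1.25. Laminins, the sheet-forming proteins of basement membranes, had 5 of 10 above the median, beside 55.2% of all genes. *Lamb1* (3199) and *Lama4* (1748) were the highest laminins, and *Lama1* read 0.150. Of 6 matricellular CCN genes, 5 were above the median, led by *Ccn5* at 2769.

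The enzymes that make and crosslink collagen were all above the median, 20 of 20, with 8 in the top 5%. *Pcolce*, which speeds removal of the collagen C-propeptide, read 8865 (rank 99), *P4hb*, a subunit of prolyl hydroxylase, 8649 (rank 108), and *Lox*, lysyl oxidase, 8447 (rank 116). *Serpinh1*, the collagen chaperone, read 5116. The lowest of this list were *P3h2* at 228, *P4ha3* at 101 and *Loxl4* at 62.3.

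Of 21 matrix proteases, 18 were above the median and 8 in the top 5%. After *Mmp3* came the lysosomal cathepsins *Ctsl* (10159) and *Ctsb* (9492), then *Mmp2*, a gelatinase, at 6582 (rank 220), and *Mmp14*, the membrane protease that activates it, at 3858. *Ctss*, a cathepsin of antigen-presenting cells, read 5.12. Of 9 protease inhibitors, 8 were above the median and 6 in the top 5%, with *Serpinf1*, pigment epithelium-derived factor, at 12006 (rank 33), *Timp2*, an inhibitor of metalloproteases, at 9649 (rank 82) and *Serping1*, the complement C1 inhibitor, at 9580 (rank 83). *Timp4* at 32.3 was the exception below the median.

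**Figure D4:**
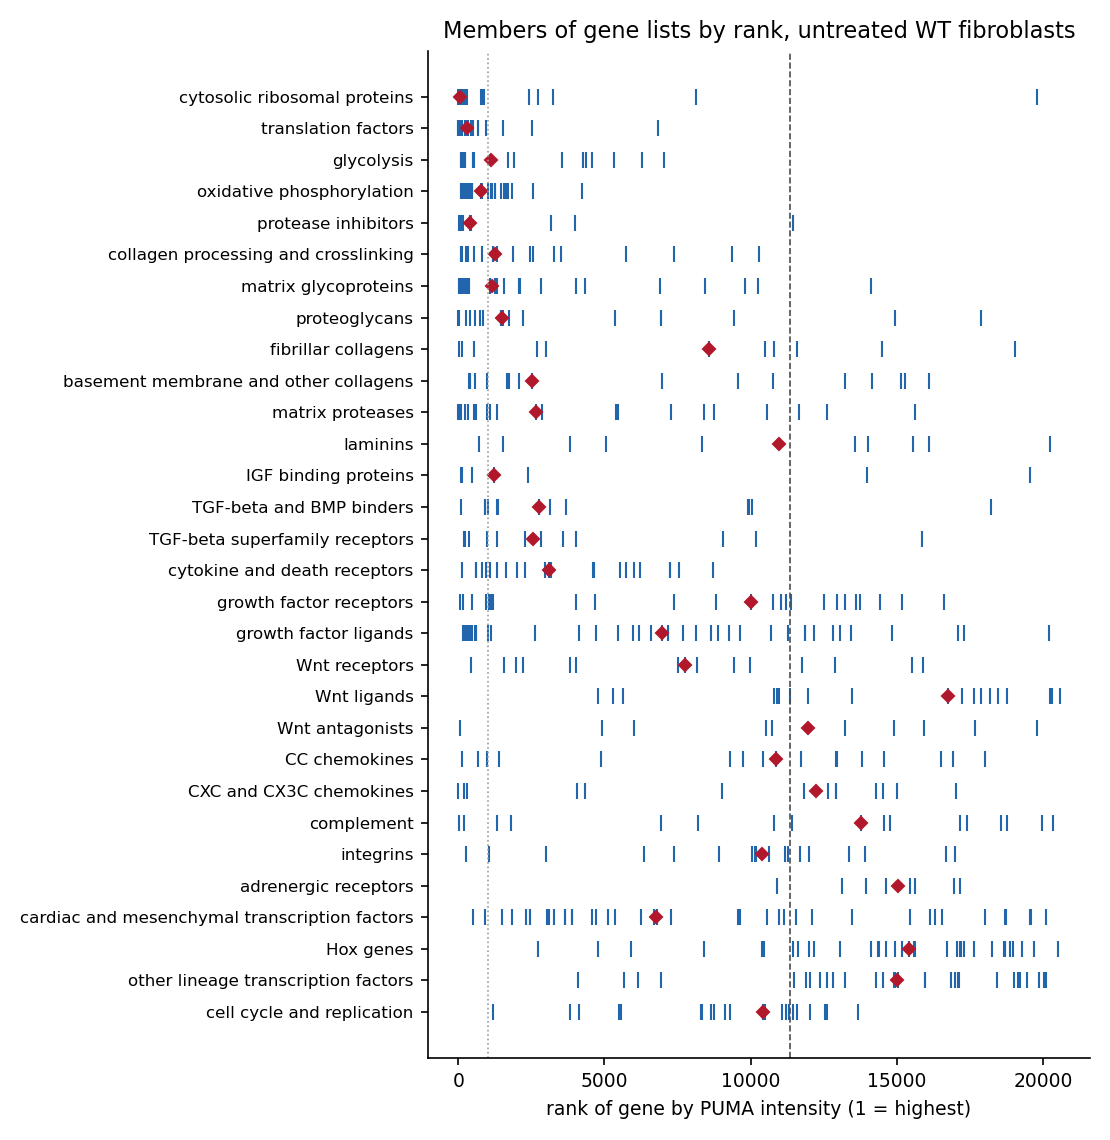
Rank by PUMA intensity of each measured gene of 30 gene lists in untreated WT fibroblasts, where each tick is a gene and each red diamond the median of its list. The dotted line marks the top 5% of genes and the dashed line the array median, at rank 11361. Ribosomal proteins and translation factors have median ranks of 72 and 317, fibrillar collagens and laminins of 8569 and 10955.5, and Hox genes and Wnt ligands of 15427 and 16767.

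Receptors were then read by family. Of 25 growth factor receptors, 16 were above the median and 4 in the top 5%, beside 55.2% of all genes above it. Those in the top 5% were *Pdgfra*, *Pdgfrb*, *Ddr2* and *Egfr*, the epidermal growth factor receptor, at 2556 (rank 968). *Igf1r* read 2386 and *Igf2r* 2384, and the lymphatic receptor *Flt4* read 8.81.

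Receptors of the TGF-β superfamily, which drive matrix synthesis in fibroblasts, were above the median in 11 of 12 cases and in the top 5% in 4. *Tgfbr3*, the co-receptor betaglycan, read 7000 (rank 186), *Tgfbr2*, the ligand-binding receptor kinase, 6583 (rank 219), and *Bmpr2*, its counterpart for bone morphogenetic proteins, 4774 (rank 371). *Tgfbr1*, the kinase that *Tgfbr2* activates, read 1989. *Bmpr1b* read 4.56 and was below the median.

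All 23 measured cytokine and death receptors were above the array median, by PUMA and by RMA, and 5 were in the top 5%. *Osmr*, the receptor of oncostatin M, read 8027 (rank 128), and its signalling partner *Il6st* (gp130) 3619 (rank 601). *Tnfrsf1a*, the main receptor of tumour necrosis factor, read 3582, *Lifr* 2899 and *Il1r1*, the interleukin 1 receptor, 2579. The lowest of the list, *Tlr2*, read 135.

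Of 34 measured G-protein-coupled receptors outside the adrenergic family, 19 were above the median, beside 55.2% of all genes, and 4 in the top 5%. These were *S1pr3*, a sphingosine 1-phosphate receptor, at 8470 (rank 114), *F2r*, the thrombin receptor, at 5689 (rank 281), *Ackr3*, a scavenging receptor for CXCL12, at 3785 (rank 562), and *Lpar1*, a receptor of lysophosphatidic acid, at 3225 (rank 711). *Agtr1a*, the angiotensin receptor, named after its value was seen, read 44.5 (rank 10848).

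Adrenergic receptors, which include the targets of the phenylephrine used in other arms of the series, stood low. Their median rank was 15044.5, against 10293.5 for all genes. Of 8 measured, 1 was above the array median by PUMA and none by RMA. The α1 receptors read 8.07 (*Adra1a*, rank 14643) and 2.47 (*Adra1b*, rank 16950), and *Adra1d* had no probe set of its own. *Adrb1*, the main β receptor of cardiomyocytes, read 15.1. Of the first 100 genes of this array, as given above, 97 were also in the first 100 after phenylephrine. Whether the cells responded to phenylephrine was not tested, and this overlap of the brightest genes does not show it.

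Of 18 measured integrin subunits, through which cells hold the matrix, 12 were above the median and 1 in the top 5%. *Itgav*, the αv subunit, read 5692 (rank 280) and *Itgb5*, a partner of it, 2414 (rank 1042). *Itgb1* read 931. With the median over probe sets instead of the brightest, 6 integrins were above the median. Of 19 adhesion and surface molecules of mesenchymal cells, 18 were above the median and 7 in the top 5%, led by *Ly6a*, the stem cell antigen Sca-1, at 9912 (rank 76). *Mcam*, a mural and endothelial adhesion molecule, read 0.385.

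Wnt signalling components were uneven. Of 15 receptors, 11 were above the median, with *Fzd1* at 4356 (rank 450), *Ryk* at 1739 and *Fzd7* at 1418. Of 19 Wnt ligands, 7 were above it, a smaller share than the 55.2% of all genes, and none was in the top 5%. With the median over probe sets 4 were above it. The highest ligands were *Wnt5a* (521), *Wnt4* (445) and *Wnt16* (402), and *Wnt10b* at 0.0194 was the lowest.

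Among 10 secreted Wnt antagonists 5 were above the median, beside 55.2% of all genes, and 1 in the top 5%. *Sfrp1*, a secreted frizzled-related protein, read 10450 (rank 61), and each of its 5 probe sets read at least 2924. *Sfrp2*, its relative, read 0.2996 (rank 19802) by its only probe set, with 0.472 on the treated WT array and 1631 and 1390 on the untreated and treated PMCA4-/- arrays. Members of 1 family thus stood at opposite ends of the order on the untreated WT array. All 4 Notch receptors were measured and 3 were above the median, with *Notch2* highest at 1426.

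Growth factor ligands spanned the whole order, with 29 of 39 above the median and 11 in the top 5%. *Fgf7*, a mesenchymal factor that acts on epithelium, read 7254 (rank 170), *Gas6*, the ligand of the receptor Axl, 6712 (rank 212), and *Csf1*, macrophage colony-stimulating factor, 5285 (rank 312). *Grn*, progranulin, read 5981, *Angptl4* 4816 and *Vegfd* 4492. *Areg*, amphiregulin, read 0.164.

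Of 14 genes listed as TGF-β superfamily ligands, 8 were above the median, near the 55.2% of all genes, and none was in the top 5%. The highest, *Bmp1* at 1159, encodes a procollagen protease in spite of its name, and the next, *Inhba*, a subunit of activin, read 814. *Tgfb2* read 239 and *Tgfb3* 120. *Tgfb1*, named after its value was seen, read 52.1 (rank 10592). The extracellular binders of these ligands stood higher, with 12 of 13 above the median and 4 in the top 5%, led by *Fstl1* at 9708 (rank 81), *Twsg1* at 2687 and *Ltbp1*, which holds latent TGF-β in the matrix, at 2656, while *Nog*, noggin, read 0.984.

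IGF-binding proteins, which carry insulin-like growth factors outside the cell, were above the median in 5 of 7 cases and in the top 5% in 3. *Igfbp7* read 9394 (rank 87), *Igfbp4* 7815 (rank 140) and *Igfbp3* 4146 (rank 488). *Igfbp5* (2138) and *Igfbp6* (1199) followed, and *Igfbp2* and *Igfbp1*, a liver product, read 10.5 and 0.385.

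Chemokines split into a few bright genes and many dim ones. Of 17 CC chemokines, 9 were above the median, beside 55.2% of all genes, and 3 in the top 5%. Those 3 were *Ccl2*, the main attractant of monocytes, at 8463 (rank 115), its neighbour *Ccl7* at 3371 (rank 673) and *Ccl8* at 2492 (rank 1001). *Ccl11*, eotaxin, read 1922. Of 14 CXC and CX3C chemokines, 6 were above the median and 3 in the top 5%, *Cxcl12* and the neutrophil attractants *Cxcl1* (6736, rank 208) and *Cxcl5* (5379, rank 302). *Cxcl9* and *Cxcl11*, which interferon γ induces, read 2.30 and 6.82.

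Of 29 interleukins and other cytokines, 13 were above the median, beside 55.2% of all genes, and 2 in the top 5%. These were *Mif*, macrophage migration inhibitory factor, at 7829 (rank 139) and *Il33*, an alarmin stored in stromal nuclei, at 3238 (rank 708). *Il6* read 419 (rank 5490). *Ifng*, *Il1a* and *Il13* read 0.347, 0.478 and 0.560. Complement genes had 7 of 17 measured members above the median, also beside 55.2% of all genes. The highest were *C3*, *C1ra* (6717, rank 210), *C4b* (2020) and *Cfb* (1522), while the chains of C1q, which macrophages make, *C1qc* and *C1qa*, read 0.242 and 0.115.

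Calcium handling was described because the series concerns a calcium pump. Of 13 pumps and exchangers, 5 were above the median, beside 55.2% of all genes. *Atp2a2*, the SERCA2 pump of the endoplasmic reticulum, read 4465 (rank 432), *Atp2b1*, plasma membrane calcium ATPase 1, 1710 (rank 1585), and *Slc8a1*, the sodium-calcium exchanger, 440. *Atp2b4*, the gene of PMCA4, read 19.6 (rank 12507), below the median, by its only probe set. On the other arrays that probe set read 23.3 in treated WT, 31.6 in untreated PMCA4-/- and 37.9 in treated PMCA4-/- cells, so it gave no lower value in the libraries labelled PMCA4-/- and does not check their label. Its position relative to the deleted part of the gene is not known here.

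Of 24 calcium channels and store-operated entry genes, 16 were above the median. *Pkd2*, polycystin 2, read 4558 (rank 415), *Trpm7* 1557 and the stretch-gated channel *Piezo1* 1239, and *Trpc6* at 0.868 was among the lowest. Calcium-binding proteins and calcineurin genes were above the median in 24 of 25 cases, with 9 in the top 5%. *S100a4*, a calcium-binding protein also called fibroblast-specific protein, read 11036 (rank 49), *S100a6* 10893 (rank 52) and *Calm2*, calmodulin, 8907 (rank 96).

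Of 34 contractile and cytoskeletal genes, 28 were above the median and 14 in the top 5%. *Tmsb4x*, the actin-sequestering thymosin β4, read 11909 (rank 35), the cytoplasmic actins *Actb* and *Actg1* 10982 and 9772, *Cald1*, caldesmon, 8559, and *Vim*, vimentin, the intermediate filament of mesenchyme, 8241 (rank 121). Below the PUMA median with *Des* and *Cnn1* stood *Actg2*, an actin of visceral muscle, at 0.447.

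Of 40 cardiac and mesenchymal transcription factors, 27 were above the median and 2 in the top 5%. *Prrx1*, a homeobox factor of mesenchyme, read 3987 (rank 513) and *Klf4* 2640 (rank 928). *Zeb1* (1815) and *Zeb2* (1167), repressors of epithelial genes, were also among the highest. *Snai2*, of the same repressor class, read 690 (rank 3888) by PUMA and 5842 (rank 489) by RMA, so its rank depended on the estimate.

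The lowest members of the same list were *Hand2* at 0.196, *Meox1* at 0.377 and *Isl1* at 0.397. Named after their values were seen, *Gata4* read 3.58 (rank 16306), *Tbx5* 1.15 (rank 18005), *Tbx20* 5.58 (rank 15437) and *Gata6* 23.4 (rank 12116), of which *Gata6* was above the RMA median at 91.9. *Gata4*, *Tbx5* and *Tbx20* were below the array median by both estimates, and their PUMA intensity on the other arrays ran from 0.261 to 10.1. These picked genes do not stand for the cardiac and mesenchymal list, of which 27 of 40 members were above the median. The epicardial factors *Tbx18* (557) and *Wt1* (91.9), given above, were also above it.

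Of 35 measured Hox genes, which record position along the body axis, 6 were above the median by PUMA. They included *Hoxa5* (1038, rank 2726), *Hoxa3* (524), *Hoxa2* (367) and *Hoxc6* (56.7). By RMA 11 Hox genes were above its median. Of 30 regulators of other lineages, 4 were above the median, *Cebpa* (644), *Gata2* (397), *Pax3* (339) and *Pparg* (265), and none was in the top 5%. *Pax7*, of muscle stem cells, read 0.194, and *Olig2* 0.218.

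Genes that all cells use formed the upper end. Of 62 cytosolic ribosomal protein genes with a probe set of their own, 61 were above the median, 57 in the top 5% and 50 in the top 1%. The exception, *Rps16*, read 0.307 by its own probe set. A probe set it shares with other genes read 11486, and which of those genes gave that signal was not tested. A further 17 ribosomal protein genes had no probe set of their own. Translation factors had 18 of 18 above the median and 15 in the top 5%, oxidative phosphorylation genes 29 of 29 and 17, and glycolysis genes 18 of 18 and 9, with *Pgk1* at 9363, *Tpi1* at 9116 and *Ldha* at 7414 highest.

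Both estimates were set against each other gene by gene. Each took its own brightest probe set, so for genes with several probe sets a difference can also reflect the probe set read. Across genes, which are not independent replicates and share the probes of 1 array, the rank correlation of PUMA and RMA was 0.936 over all 20586 genes and 0.980 over the genes above the array median (Pearson 0.913 and 0.977 on the log2 scale). Of the 11361 genes above the PUMA median, 10844 were also above the RMA median. Within the first 1000 genes, 895 were shared. Among genes of the first 1000 in either estimate, the largest differences of rank in favour of RMA were those of *Snai2* and *Rps2*, a ribosomal protein gene that read 860 (rank 3253) by PUMA and 19360 (rank 26) by RMA and 12312 by PUMA on a probe set shared with other genes, then *Ssbp1*, *Tmed4* and *Plxdc2*. In favour of PUMA they were those of *Spry2* (2622, rank 933, against 2114, rank 1769), *Slit3*, *Rcn1*, *Lamtor5* and *Colec12*.

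**Figure D5:**
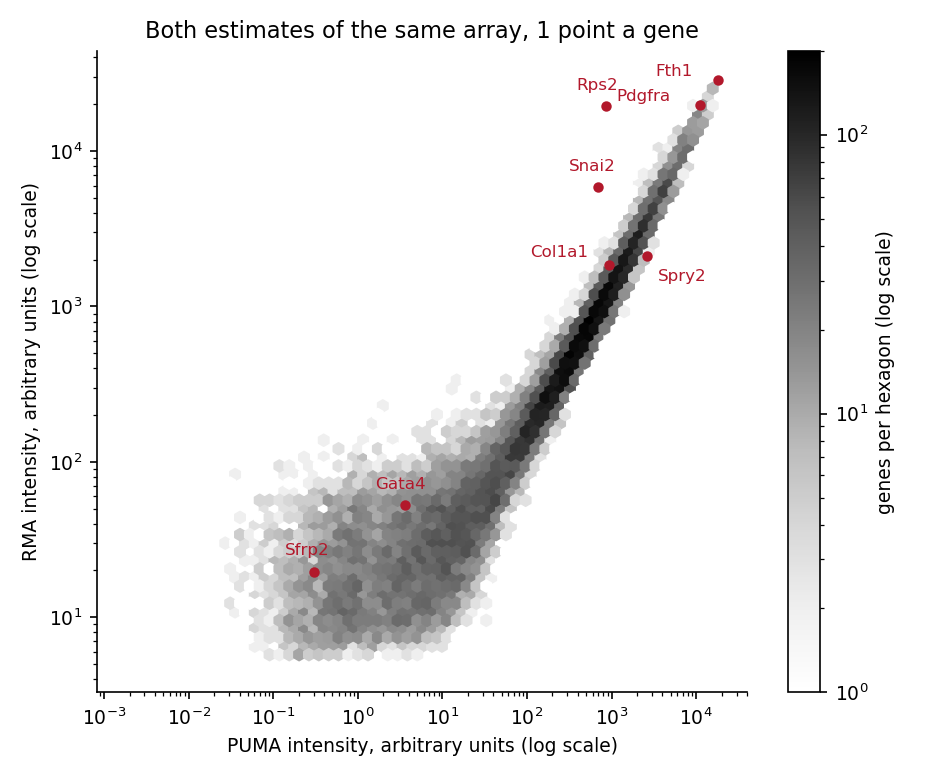
RMA against PUMA intensity, both in arbitrary units on log axes, for the 20586 genes of the untreated WT array, with darker hexagons holding more genes and named genes in red. Bright genes lie along a narrow band, below the PUMA median of 34.0 the band widens, and *Rps2* and *Snai2* lie above it.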

How the data were processed

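RNA of untreated WT cardiac fibroblasts (RNA of 3 batches pooled, 6 µg labelled as biotin cRNA) was hybridized to 1 Affymetrix array of 4. The deposited values are linear intensities of 45037 probe sets, which the authors derived by PUMA and, in a separate table, by RMA. A further table of values equals the PUMA intensities (180148 of 180148 within a share of 0.0001). The study names MOE430A arrays and MAS5.0, and the submitters' processing notes name MAS5 and RMA. Whether the array design of that name carries the 45037 probe sets read here was not tested, so the design is not taken as known. No source used here gives tool versions, the annotation release or the mouse strain. The authors' tables also hold fold changes and probabilities for pairs of arrays, which were not used.

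The 37818 probe sets with a single symbol were brought to RefSeq symbols of GRCm38.p6 (31088 current, 3518 through an accession, 394 through an older symbol, 2818 kept as given). Another 1394 had several symbols, 5820 none and 5 an unreadable one. The brightest probe set stood for each gene, without background subtraction, pseudocount or further normalization. Python 3.11.15, pandas 2.3.3, numpy 2.4.6 and scipy 1.17.1 were used. The code was run on simulated data with genes planted at both extremes, which checks the sorting and counting but not the accuracy of ranks. No p-value was computed, since each condition had 1 array.

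The genes were grouped in 58 lists, 10 of them cell type markers. The members and lists were chosen with earlier results of these data known. Named genes were the first 30, the 4 markers, up to 6 highest and 3 lowest members of each list, all cell type markers, the 5 genes of largest rank difference between PUMA and RMA in each direction, the sex-linked genes and *Atp2b4*, and any other gene is marked as chosen after its value was seen, or stands in a promoter or shared-array statement. Alternatives were RMA values, the median over probe sets, the probe set with the highest mean over the 4 arrays, the upper quartile as threshold, no _x_at or _s_at probe sets, and symbols as given. A few genes of the lists are counted but not reported by name here.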

Additional observations from a re-analysis of the deposited data

How the results depend on the processing

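The number of genes above the array median was 11361. It was 11653 by RMA, 10545 with the median over probe sets, 11353 with the probe set of highest mean, 11004 without _x_at and _s_at probe sets and 11399 with symbols as given, and it fell to 7077 with the upper quartile of 253.4 as threshold, which is stricter by construction. The count of 3 of 4 fibroblast markers in the top 5% was the same in all 5 alternatives run. Of 483 named ranks, 417 stayed within 1.5-fold by RMA, all 483 with the probe set of highest mean, 448 of 472 without _x_at and _s_at probe sets, and 298 of 483 with the median over probe sets. Of the 58 list counts above the median, 53 stayed within 1.5-fold by RMA and 56 with the median over probe sets, and 36 with the upper quartile as threshold. Of the 58 counts in the top 5%, 55, 48 and 49 did so by RMA, with the median over probe sets and without _x_at and _s_at probe sets. The ribosomal count in the top 5% was 35 instead of 57 without _x_at and _s_at probe sets, and the count above the median 48 instead of 61, and the cause was not tested. With the median over probe sets the top 5% held 1 TGF-β superfamily receptor instead of 4 and 2 TGF-β binders instead of 4. Without _x_at and _s_at probe sets it held 7 growth factor receptors instead of 4, and 1 epicardial marker instead of 2 was above the median. Intensities below the array median are less certain in order, as 6571 probe sets read below 1 by PUMA and none by RMA. No paired analysis was possible because each condition had 1 array.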

Other observations

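Genes of protein folding and redox balance stood high in untreated WT fibroblasts. All 24 endoplasmic reticulum chaperone and heat shock genes were above the array median and 17 were in the top 5%, with *P4hb* at 8649, *Hsp90b1*, the chaperone GRP94, at 7844 and *Calr*, calreticulin, at 7784, and the lowest, *Hspa1a*, at 250. Of 31 antioxidant and metal genes, 30 were above the median and 16 in the top 5%. After *Fth1* came *Prdx1*, a peroxiredoxin, at 8585 (rank 109) and *Mt2*, a metallothionein, at 8057 (rank 126), and *Mt3*, the brain form, read 7.41. All 18 cholesterol and lipid genes were above the median, led by *Apoe* at 6981 (rank 189).

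Of 24 cell cycle and replication genes, 18 were above the median and none in the top 5%, with *Pcna*, the polymerase clamp, highest at 2192 (rank 1187) and *Bub1*, a spindle checkpoint kinase, lowest at 12.1. Of 11 D-type cyclin and CDK inhibitor genes, 10 were above the median and 2 in the top 5%, *Ccnd2*, a D-type cyclin, at 6807 (rank 201) and *Cdkn1a*, the inhibitor p21, at 2912 (rank 812). *Cdkn1c* read 5.44. Immediate early factors had 18 of 20 above the median and none in the top 5% by PUMA, with *Ier3* at 2037 and *Egr1* at 1680 highest.

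Interferon response genes had 17 of 22 above the median and 3 in the top 5%, all of the *Ifitm* family, *Ifitm3*, *Ifitm2* (9334, rank 91) and *Ifitm1* (6794, rank 202). *Mx2* read 0.213. Of 8 MHC genes, 3 were above the median, the class I genes *H2-D1* (3334) and *H2-K1* (2447) and *B2m*, their light chain (8876, rank 98), while the class II genes *H2-Ab1*, *H2-Eb1* and *H2-Aa* read 0.289, 1.60 and 8.93. Among the first 100 genes, 27 were in none of the lists, including *Gsn*, the actin-severing protein gelsolin, at 11907 (rank 36), *Lcn2*, lipocalin 2, at 11552 (rank 40), *Cp*, ceruloplasmin, at 10111 (rank 70) and *Mgp*, matrix Gla protein, at 10162 (rank 67), all 4 chosen after their values were seen.

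*Plxdc2*, a membrane protein named for the difference between its PUMA and RMA ranks, read 1455 in untreated and 1443 in treated WT cells, and 19.5 and 17.4 in untreated and treated PMCA4-/- cells, a difference between single arrays that was not tested.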
